A study of Arabidopsis thaliana with 27 samples.

Results

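The genes described are 29 Aux/IAA and 15 ARF genes of *Arabidopsis thaliana*, 44 of the 33977 genes counted in the series, chosen by their gene identifiers and not by any measured value. Auxin is perceived by TIR1/AFB F-box proteins, which bind the hormone together with an Aux/IAA protein and mark that protein for degradation. An Aux/IAA protein that is present binds ARF transcription factors and recruits TPL co-repressors to their target genes, so its loss releases the ARFs. Many Aux/IAA genes are themselves activated by ARFs through auxin response elements in their promoters, which makes their transcripts common readouts of auxin response in growing stems, leaves and roots.

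RNA was measured in 27 plants, 1 library per plant, in 9 groups of 3. The epi-lines Epi 8, Epi 24 and Epi 10 are F3 families from crosses of Col-0 wild type (WT, used as female) with an *msh1* T-DNA mutant, descended from F2 plants in which the mutant allele was no longer present. MSH1 is a nuclear gene for a DNA-binding protein of plastids and mitochondria. Epi 8 and Epi 24 came from the same cross and Epi 10 from the other, so each line stands for a single family. Epi 8, Epi 24 and WT were sampled as floral stem at 6 weeks and as root after 10 days on medium, and Epi 8, Epi 10 and WT as rosette leaf at bolting. The leaf groups follow the labels, since the study's methods give the leaf plants an age in weeks and name leaf of Epi 8 and WT but not of Epi 10. All groups share the Col-0 background. No group received a treatment, and the question was whether transcripts differed between epi-line and WT plants of the same organ.

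Reads counted in genes numbered 18465252 to 21219383 for a floral stem library (3 counts equal 0.141 to 0.162 CPM, the count scaled to a common library size), 18524351 to 20041205 for a root library (0.150 to 0.162 CPM) and 48098795 to 90808615 for a leaf library (0.0330 to 0.0624 CPM). Intervals and floors given here cover counting error only. The summed level of 4 root markers was 114 to 231 CPM in the 9 root libraries and 13.1 to 42.9 CPM elsewhere, where it was nearly all SCR, a gene also counted in leaf, while COBL9 and CASP1 had 0 CPM in every floral stem. The sum of 4 leaf markers was 24700 to 39700 CPM in floral stem, 24700 to 35200 CPM in leaf and 141 to 373 CPM in root, so it did not separate floral stem from leaf. The sum of 3 secondary-wall cellulose synthases was 507 to 5930 CPM in floral stem and 20.4 to 158 CPM elsewhere, and 5 flower markers summed to at most 8.11 CPM in every library. Organ, plant age, growth medium and harvest cannot be told apart in comparisons between organs, nor can library depth in those with leaf, and the labels give no harvest hour. The strand setting of the counting is not given in the sources used here, so reads of IAA3, IAA5, IAA9, IAA10, IAA11, IAA13, IAA27, IAA32, ARF1, ARF5 and ARF7 can be mixed with those of genes that overlap them on the opposite strand, and IAA34 and ARF19 overlap a gene on the same strand. In bulk RNA, fewer cells of a type and less RNA per cell cannot be told apart.

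Features of the sequence divide the members into the classes used below. The degron, the short stretch that TIR1/AFB receptors bind, has glycine, tryptophan and 2 prolines at its core. Its codons were found in 23 of the 29 Aux/IAA genes and not in IAA20, IAA30, IAA31, IAA32, IAA33 and IAA34, the non-canonical members. The 39 bases around the core are given here for the Aux/IAA genes on which the line and organ results turn, with the codons of the core in capitals. They were read 5′ to 3′ on the coding strand from the TAIR10.1 assembly.
IAA5 (chromosome 1, 5366269 to 5366307, minus strand, exonic): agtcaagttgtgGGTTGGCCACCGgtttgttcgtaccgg
IAA7 (chromosome 3, 8195565 to 8195603, plus strand, exonic): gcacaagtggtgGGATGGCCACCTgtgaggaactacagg
IAA8 (chromosome 2, 9637722 to 9637760, plus strand, exonic): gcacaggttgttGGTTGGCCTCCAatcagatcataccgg
IAA11 (chromosome 4, 14142546 to 14143038, plus strand, split by an intron): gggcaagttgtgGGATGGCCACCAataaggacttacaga
IAA17 (chromosome 1, 1136935 to 1136973, plus strand, exonic): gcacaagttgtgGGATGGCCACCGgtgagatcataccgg
IAA29 (chromosome 4, 15583939 to 15583977, plus strand, exonic): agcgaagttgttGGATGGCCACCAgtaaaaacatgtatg
The same core is coded in each of these 6 genes, between flanking bases that differ.

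Among the ARFs, ARF5, ARF6, ARF7, ARF8 and ARF19 are known as activators and the other 10 are grouped together here. The microRNAs miR160 and miR167 cut the transcripts of ARF10, ARF16 and ARF17, and of ARF6 and ARF8. The mature sequences of miR160a and miR167a are given with bases 2 to 8 in capitals. In the matching sites in coding exons, bases in A:U or G:C pairs are in capitals, and G:U pairs and mismatches in lower case. The ARF10, ARF16 and ARF17 sites are aligned to miR160a. The ARF6 and ARF8 sites are aligned to miR167c-5p, which is not printed, and are out of register with the miR167a printed here. All were read from TAIR10.1 and are shown because these 5 ARFs are described as classes below.
miR160a: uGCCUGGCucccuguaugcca
ARF17 (chromosome 1, 29274189 to 29274209, plus strand): UGGCAUgCAGGGAGCCAGGCA
ARF10 (chromosome 2, 12115741 to 12115761, plus strand): aGGaAUACAGGGAGCCAGGCA
ARF16 (chromosome 4, 14704141 to 14704161, minus strand): gGGuuUACAGGGAGCCAGGCA
miR167a: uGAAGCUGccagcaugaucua
ARF6 (chromosome 1, 10686479 to 10686499, minus strand): ugAGAUCAgGCUGGCAGCUUg
ARF8 (chromosome 5, 14633840 to 14633860, plus strand): uuAGAUCAgGCUGGCAGCUUg
ARF2, ARF3 and ARF4 form a further class, which is cut by small RNAs from TAS3 transcripts.

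The auxin response elements TGTCTC and TGTCGG, which do not overlap each other, were searched on both strands in the 250 bases before each gene start. At least 1 of them was found in 13 of 29 Aux/IAA genes (44.8%) and in 3 of 15 ARF genes (20%), against 4027 of 27443 protein-coding genes (14.7%). TGTCTC stood before 9 Aux/IAA genes (31%) and 10.9% of all genes, and TGTCGG before 6 (20.7%) and 4.16% of all genes. The most elements, 3 each, stood before IAA5 and IAA19, whose transcripts are widely used markers of auxin response. Their 250 bases are printed with the elements in capitals, written as they read 5′ to 3′ towards the gene, so that CCGACA is TGTCGG on the other strand.
IAA5 (chromosome 1, 5366498 to 5366747, minus strand): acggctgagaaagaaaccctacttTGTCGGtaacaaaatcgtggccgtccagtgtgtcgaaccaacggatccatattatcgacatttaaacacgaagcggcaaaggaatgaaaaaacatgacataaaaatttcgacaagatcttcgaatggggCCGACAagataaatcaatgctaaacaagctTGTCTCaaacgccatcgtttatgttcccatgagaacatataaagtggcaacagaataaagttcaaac
IAA19 (chromosome 3, 5263751 to 5264000, plus strand): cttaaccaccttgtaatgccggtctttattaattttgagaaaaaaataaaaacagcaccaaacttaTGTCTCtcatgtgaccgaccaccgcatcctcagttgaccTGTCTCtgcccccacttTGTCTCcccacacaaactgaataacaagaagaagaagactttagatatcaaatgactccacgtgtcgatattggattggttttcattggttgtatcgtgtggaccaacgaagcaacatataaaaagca
A match in these windows is a string of letters and not a measured binding site.

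The families were compared between genes as RPKM, the CPM of a gene scaled over all 27 libraries and divided by its exon length in kilobases. Summed over its 29 genes, the Aux/IAA level was highest in floral stem, at 1350 ± 166 RPKM in Epi 8, 1470 ± 40.6 in Epi 24 and 1480 ± 147 in WT (SD, n = 3 plants in each group given). In root the sums were 546 ± 21.8 RPKM in Epi 8, 548 ± 60.8 in Epi 24 and 535 ± 36.5 in WT, and in leaf 564 ± 41.0 in Epi 8, 570 ± 72.4 in Epi 10 and 604 ± 58.7 in WT. The summed ARF level was highest in leaf, with 315 ± 13.6 RPKM in Epi 8, 300 ± 9.31 in Epi 10 and 287 ± 11.9 in WT, against 242 ± 20.6, 247 ± 12.5 and 223 ± 13.5 RPKM in floral stem of Epi 8, Epi 24 and WT and 128 ± 2.58, 137 ± 7.41 and 129 ± 4.44 RPKM in their roots. The Aux/IAA sum of floral stem lay above those of root and leaf in Epi 8 and WT and above that of root in Epi 24. In Epi 8 and WT, root and leaf lay close together, and the ARF sums of the 3 organs were separate. ARF2 alone gave 119 RPKM in leaf and 39.5 RPKM in floral stem of Epi 8, and 109 and 33.9 RPKM in WT. That gap was wider than the gap between the ARF sums of leaf and floral stem, so the other ARFs together were not higher in leaf.

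A few genes carried much of each family. In WT floral stem the highest members were IAA7 (301 RPKM), IAA9 (257 RPKM) and IAA27 (129 RPKM), and IAA7 made up 20.3% of the Aux/IAA level. In WT root they were IAA9 (121 RPKM), IAA16 (80.6 RPKM) and IAA28 (51.4 RPKM), and in WT leaf IAA9 (119 RPKM), ARF2 (109 RPKM) and IAA8 (68.0 RPKM). ARF2 (AT5G62000), a repressor linked to organ size and leaf ageing, made up 38.0% of the ARF level in WT leaf. The same 3 genes led in Epi 8 floral stem and Epi 8 root, whereas IAA16 (65.4 RPKM) stood in the place of IAA8 in Epi 8 leaf. The lowest levels of WT leaf were those of IAA33, IAA15, IAA20, IAA31 and IAA34. IAA15 had no read in any root library, IAA33 none in any leaf library, and IAA31 at most 3 reads in a leaf library. Of the 44 members, 40 had their highest level in the same organ in Epi 8 and in WT plants. In WT that organ was floral stem for 20 Aux/IAA and 7 ARF genes, root for 5 and 1, and leaf for 4 and 7.

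**Figure D1:**
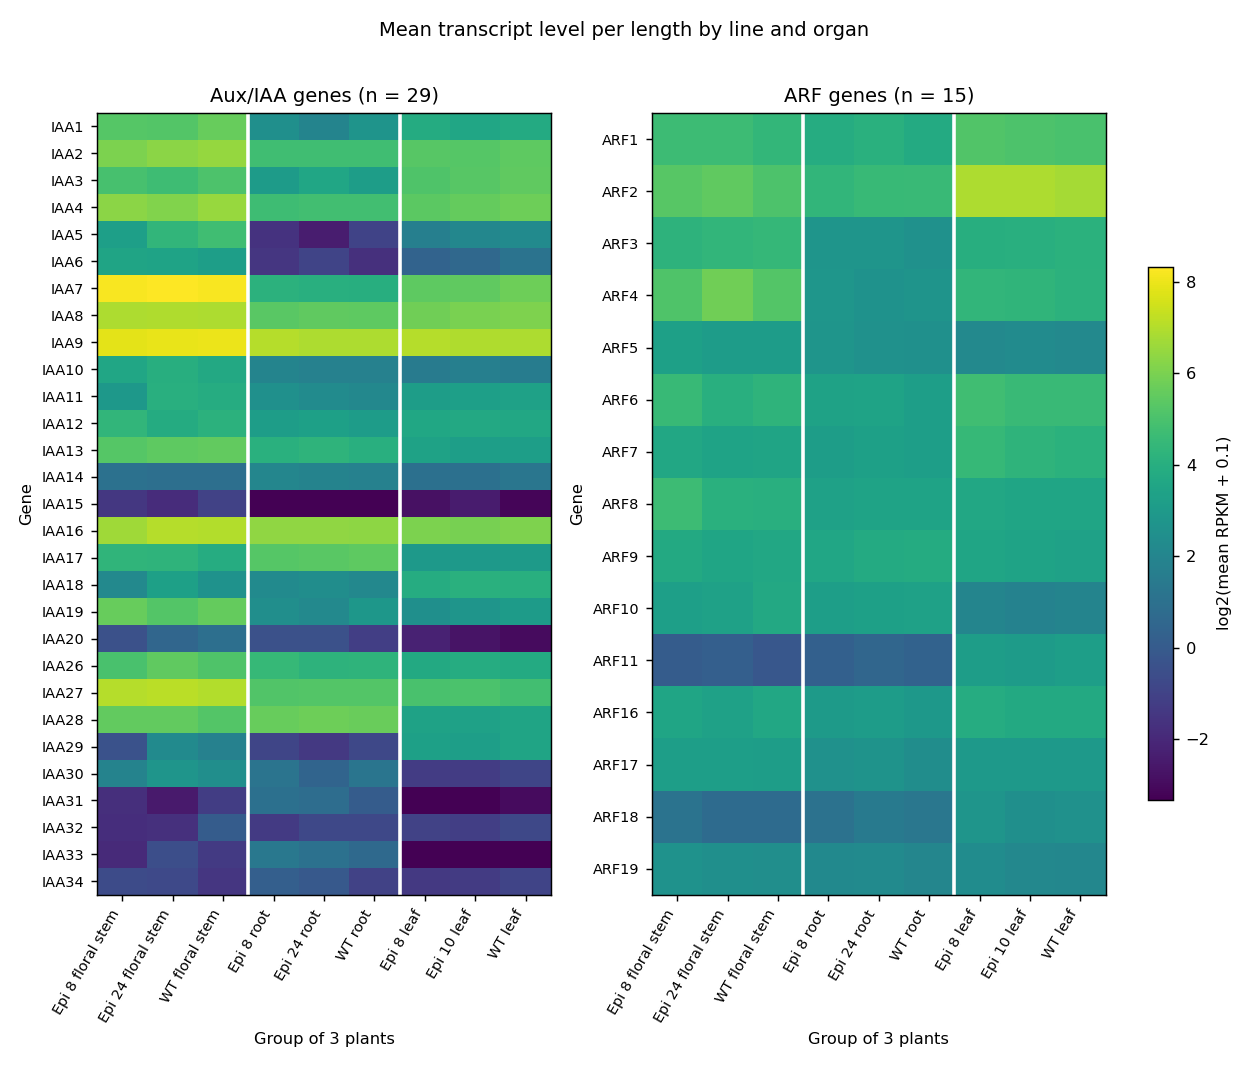
Mean level of each member (rows, Aux/IAA genes left and ARF genes right) in each group of 3 plants (columns, by organ), as the log2 of the mean RPKM plus 0.1. IAA7 and IAA9 are the brightest in floral stem, ARF2 in leaf, and IAA33 and IAA31 are darkest in leaf.

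The ARF genes on chromosome 1 named ARF12 to ARF15 and ARF20 to ARF23 are not members. They resemble each other closely, and only uniquely mapped reads were counted, so their counts are uncertain. ARF20 had 2.05 to 4.54 CPM in Epi 8, 1.66 to 5.16 CPM in Epi 24 and 1.73 to 5.85 CPM in WT roots and at most 0.559 CPM in floral stem, and each of the others had at most 0.0518 CPM in every library.

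The organ comparisons were made within Epi 8 and within WT plants, which share no sample, in a fit over all 27 libraries. Of the 22442 genes tested, those with an FDR under 0.05 and a log2 fold change (log2FC) of 1 or more in size were called. Of the members, 43 were tested, all but IAA15. CPM in these comparisons are scaled over the 27 libraries.

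In root against floral stem, most called members were lower in root. In Epi 8, 20 of the 43 members were called, 3 higher and 17 lower (all genes, 45.0% called, 22.3% higher and 22.6% lower). In WT, 23 were called, 2 higher and 21 lower (all genes, 45.5%, 22.1% and 23.4%). The share called lay near that of all genes, while the share called lower, 39.5% of members in Epi 8 and 48.8% in WT, was above that of all genes. The median log2FC over the members was -0.667 in Epi 8 and -0.997 in WT, against -0.0673 and -0.0831 over all genes. By family, 18 Aux/IAA genes and 3 ARF genes were called lower in WT root. The 17 members called in both lines had the same direction in each, which is 85.0% of the calls in Epi 8 and 73.9% of those in WT.

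IAA7 (AT3G23050), known from the auxin-resistant *axr2* mutant, had 29.1, 35.5 and 37.8 CPM in Epi 8 roots, against 424, 575 and 738 CPM in Epi 8 floral stems, and 30.0, 31.7 and 28.2 CPM in WT roots, against 633, 621 and 469 CPM in WT floral stems. The organs were far apart in both lines, with a log2FC of -4.08 (SE 0.212, FDR = 1.91e-13) in Epi 8 and -4.26 (SE 0.214, FDR = 9.9e-14) in WT. IAA5 (AT1G15580) had 0.0813 to 0.330 CPM in Epi 8 roots against 2.41 to 11.2 CPM in Epi 8 floral stems, and 0.215 to 0.487 CPM in WT roots against 17.2 to 25.2 CPM in WT floral stems, a log2FC of -5.34 (SE 0.599, FDR = 5.92e-08) in Epi 8 and -5.99 (SE 0.572, FDR = 4.45e-09) in WT. IAA6 was at 13 to 16 reads in total over the 3 roots of each line and fell by 5.41 on the log2 scale in Epi 8 and by 5.43 in WT. IAA5 and IAA6 were near 0 in root, whereas IAA7 was still clearly counted there. IAA1 averaged 5.19 ± 0.787 CPM in Epi 8 roots and 36.2 ± 11.8 CPM in Epi 8 floral stems, and 6.03 ± 1.99 CPM in WT roots and 46.2 ± 13.5 CPM in WT floral stems. IAA33 (AT5G57420), a gene without the degron, was the only member called higher in root by both lines, with 1.89 ± 0.492 CPM in Epi 8 roots against 0.121 ± 0.108 CPM in Epi 8 floral stems and 1.13 ± 0.535 CPM in WT roots against 0.229 ± 0.0958 CPM in WT floral stems. Its call in WT (log2FC 2.29, FDR = 0.0301) was lost without WT root plant 2 or 3 or WT floral stem plant 1 or 3 (FDR 0.0689 to 0.0902).

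In leaf against floral stem, 23 members were called in each line, 5 higher and 18 lower (all genes, 42.8% called in Epi 8, 19.7% higher and 23.1% lower, and 43.4% called in WT, 20.0% higher and 23.5% lower). The members called lower were 41.9% in each line. The median log2FC was -0.8 over the members in Epi 8 and -0.897 in WT, against 0 over all genes in both. Of these calls 20 were shared, all in the same direction, 87.0% of the calls of each line. The calls by family were not tested against each other: 2 of 28 Aux/IAA genes were higher and 16 lower in leaf, in Epi 8 and in WT alike, against 3 higher and 2 lower among the 15 ARFs.

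ARF11 (AT2G46530) had 28.4, 25.8 and 17.3 CPM in Epi 8 leaves, against 4.25, 2.04 and 1.45 CPM in Epi 8 floral stems, and 23.6 to 25.2 CPM in WT leaves, against 1.43, 1.92 and 3.15 CPM in WT floral stems. No leaf overlapped a floral stem, and the log2FC was 3.2 (SE 0.353, FDR = 5.83e-08) in Epi 8 and 3.51 (SE 0.361, FDR = 1.99e-08) in WT. ARF2 had 428 to 494 CPM in Epi 8 leaves against 124 to 191 CPM in Epi 8 floral stems, and 406 to 439 CPM in WT leaves against 125 to 137 CPM in WT floral stems, a log2FC of 1.59 (SE 0.136) and 1.68 (SE 0.137). ARF18 followed the same order, with a log2FC of 1.66 in Epi 8 and 1.88 in WT. IAA29 (AT4G32280), an Aux/IAA gene induced by the light-regulated PIF factors, had 10.7 to 14.1 CPM in Epi 8 leaves against 1.23, 0.524 and 0.837 CPM in Epi 8 floral stems, and 14.8, 19.7 and 8.47 CPM in WT leaves against 1.99, 3.73 and 7.15 CPM in WT floral stems. Its log2FC was 3.86 (FDR = 4.8e-05) in Epi 8 and 1.74 (FDR = 0.0157) in WT, and the WT call was lost without WT leaf plant 2 (FDR 0.0688) or WT floral stem plant 1 (FDR 0.0704) and when only WT libraries were fitted (FDR 0.05). Of the 6 non-canonical genes, 4 were called lower in leaf by each line. IAA30 averaged 0.318 ± 0.108 CPM in Epi 8 leaves and 3.58 ± 1.11 CPM in Epi 8 floral stems, and 0.435 ± 0.128 CPM in WT leaves and 5.32 ± 2.65 CPM in WT floral stems. IAA20 had 18 reads in total in Epi 8 leaves against 36 in Epi 8 floral stems, and 5 in WT leaves against 96 in WT floral stems, and its Epi 8 call was lost without Epi 8 leaf plant 1 or 2 or Epi 8 floral stem plant 2 (FDR 0.0505 to 0.0911). IAA31 and IAA33 had at most 15 reads in total in the floral stems of Epi 8 or of WT. Against a floor of 9 counts per group, IAA33 was at least 5.62-fold lower in WT leaf and IAA31 at least 3.68-fold in Epi 8 leaf. These bounds use total library counts without the scaling over 27 libraries, which would make them smaller. The WT call of IAA31 was lost without WT floral stem plant 3 (FDR 0.211) or WT leaf plant 3 (FDR 0.0539).

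**Figure D2:**
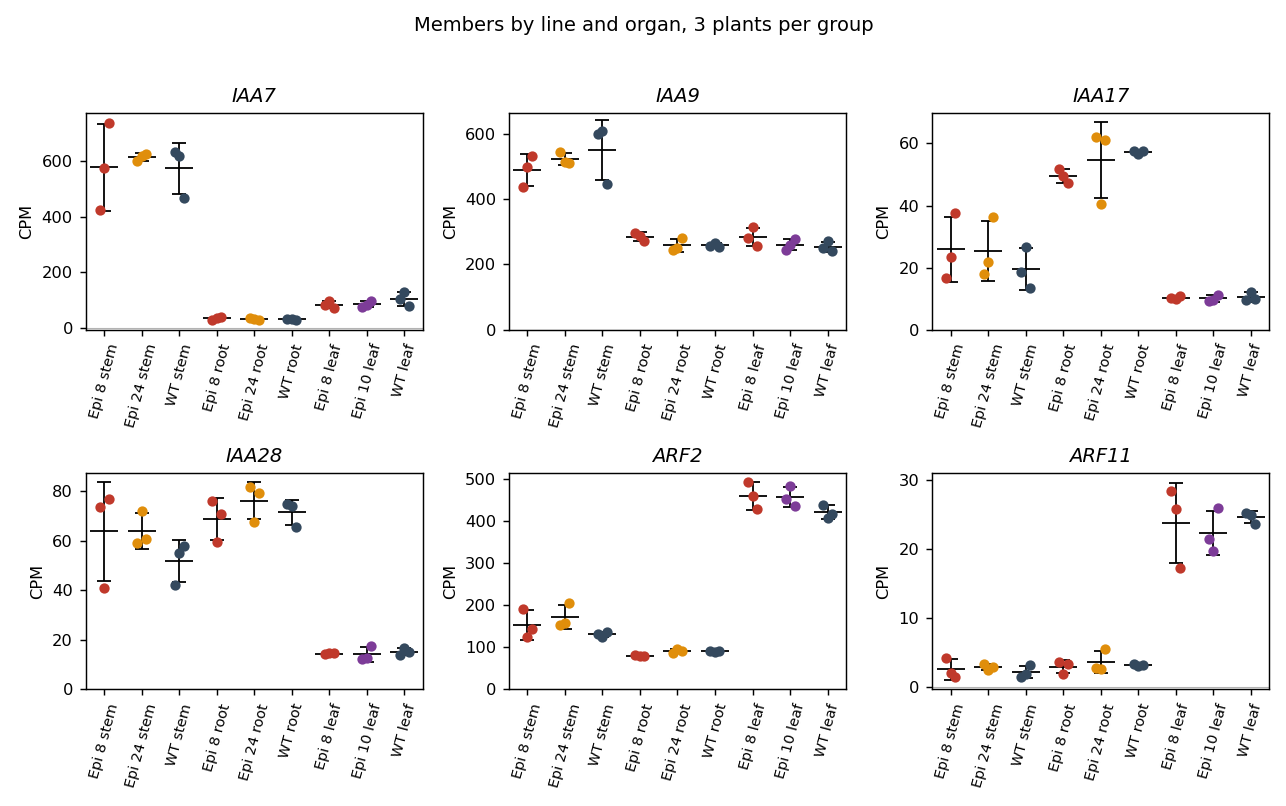
CPM scaled over 27 libraries of 6 members in each plant (points) by line and organ, with the mean (bar) and SD (whiskers) of 3 plants. IAA7 lies above 420 CPM in every floral stem and below 130 CPM elsewhere, IAA17 is highest in root, IAA28 is lowest in leaf, and ARF2 and ARF11 are highest in leaf, in Epi 8 and in WT.

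In leaf against root, more members were called higher than lower, with 15 higher and 9 lower in Epi 8 and 15 higher and 7 lower in WT (all genes, 54.2% called in Epi 8, 24.8% higher and 29.4% lower, and 53.2% called in WT, 24.2% higher and 29.0% lower). Of the calls 21 were shared and had the same direction, 87.5% of those in Epi 8 and 95.5% of those in WT. The median log2FC was 0.405 over the members in Epi 8 and 0.552 in WT, against -0.0336 and -0.0515 over all genes. Of the ARFs, 8 were called higher and 1 lower in Epi 8, and 7 higher and 1 lower in WT. All 3 ARFs cut by TAS3 small RNAs were higher in leaf in both lines. ARF10, a miR160 target, was the ARF called lower (log2FC -1.24, FDR = 4.35e-06 in Epi 8 and -1.44, FDR = 5.34e-07 in WT). The other miR160 targets, ARF16 and ARF17, were called in neither line and lay higher in WT leaf than in WT root (log2FC 0.86 and 0.59).

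IAA29 had 10.7 to 14.1 CPM in Epi 8 leaves against 0.741, 0.288 and 0.691 CPM in Epi 8 roots, and 14.8, 19.7 and 8.47 CPM in WT leaves against 0, 0.853 and 0.988 CPM in WT roots, with a log2FC of 4.45 (SE 0.717, FDR = 7.7e-06) and 4.53 (SE 0.716, FDR = 6.2e-06). IAA5 (3.8 in Epi 8 and 3.5 in WT), IAA6 (2.21 and 3.24) and ARF11 (2.99 and 2.94) followed in log2FC, and the Epi 8 call of IAA6 was lost without Epi 8 root plant 2 (FDR 0.0766). IAA17 (AT1G04250), known from the auxin-resistant *axr3* mutant, had 9.87 to 10.7 CPM in Epi 8 leaves against 51.9, 49.6 and 47.3 CPM in Epi 8 roots, and 9.46, 12.3 and 9.78 CPM in WT leaves against 57.6, 56.7 and 57.5 CPM in WT roots, with a log2FC of -2.28 (SE 0.269, FDR = 8.1e-08) and -2.45 (SE 0.269, FDR = 2.93e-08). The leaves of both lines lay well below every root. IAA33 had no read in the leaves, against 138 reads in Epi 8 roots and 81 in WT roots. By total library counts, without the scaling over 27 libraries, it was at least 48.6-fold and 38-fold lower in leaf. IAA31 had no read in Epi 8 leaves and 5 in WT leaves, against 124 in Epi 8 roots and 59 in WT roots. By the same measure it was at least 43.7-fold lower in Epi 8 leaf. The scaling factors were 1.21 to 1.26 in these roots and 0.843 to 0.887 in these leaves, so scaled bounds would be smaller. IAA20 was called lower in both lines at 25 to 46 reads over the 3 roots, and its Epi 8 call was lost without Epi 8 leaf plant 2 (FDR 0.0827) or Epi 8 root plant 1 (FDR 0.0786).

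**Figure D3:**
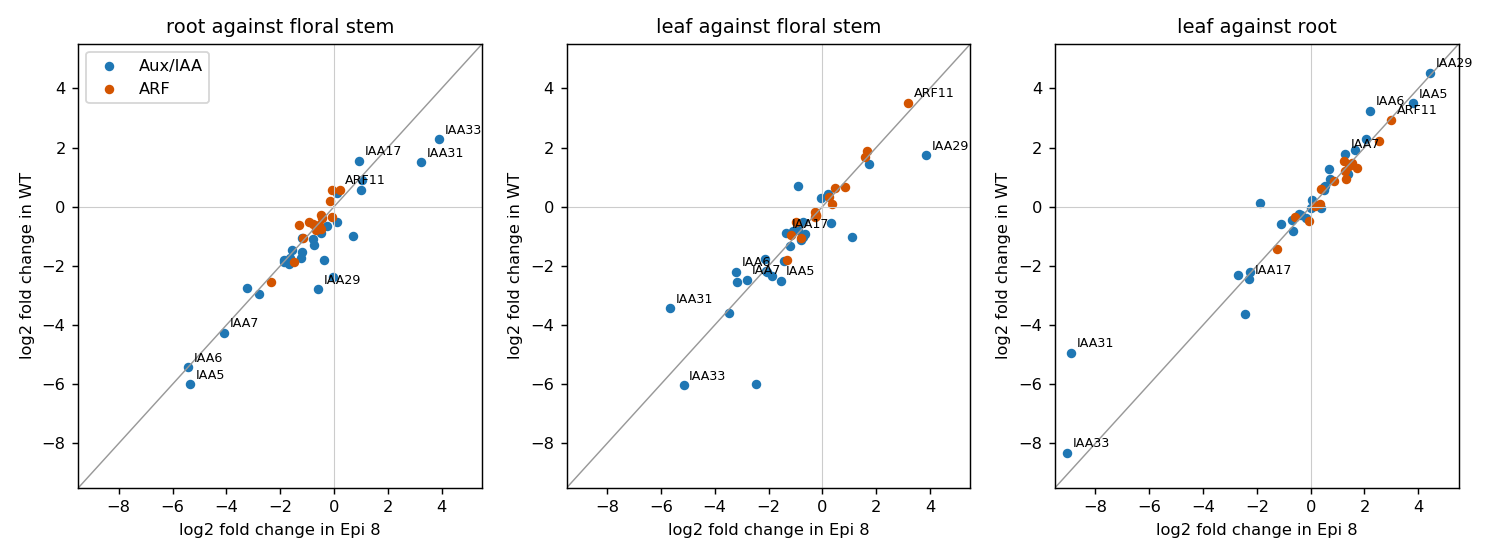
The log2FC of the 43 tested members between organs in Epi 8 (x axis) and in WT (y axis), with the line of equal values. Most points lie near the line, IAA20, IAA29, IAA31 and IAA32 are among those farthest from it in both comparisons with floral stem (the differences between lines were not called, FDR 0.265 to 0.745), and the values of IAA31 and IAA33 against leaf are fits to groups at or near 0 reads and are no bounds.

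Another scaling of the libraries (RLE) moved the median of all genes by 0.115 in root against floral stem and by -0.113 in leaf against root in WT, and the 20 to 24 calls per comparison by at most 2. Of the Aux/IAA genes with an auxin response element in the 250 bases, 8 of 13 were called lower in Epi 8 root than in floral stem and 10 of 13 in WT, against 5 of 15 and 8 of 15 of those without (all genes, 22.6% and 23.4% lower). In leaf against floral stem 9 of 13 were called lower in Epi 8 and 8 of 13 in WT, against 7 of 15 and 8 of 15 (all genes, 23.1% and 23.5%), and in leaf against root 3 of 13 and 2 of 13, against 5 of 15 and 4 of 15 (all genes, 29.4% and 29.0%). The difference between genes with and without an element was not tested.

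The pairs of Aux/IAA genes that lie head to head with no protein-coding gene between them are IAA3 and IAA17 on chromosome 1 (6388 bp apart), IAA2 and IAA7 on chromosome 3 (12510 bp) and IAA14 and IAA1 on chromosome 4 (10732 bp). IAA2 and IAA7 were both highest in floral stem, while the partners of the other pairs were highest in different organs. IAA3, whose mutant is *short hypocotyl 2*, had 8.44 ± 1.71 RPKM in Epi 8 root and 35.2 ± 6.58 RPKM in Epi 8 leaf, and 8.99 ± 3.16 RPKM in WT root and 44.4 ± 7.34 RPKM in WT leaf. IAA17 had the opposite order, with 37.7 ± 1.72 RPKM in Epi 8 root and 7.77 ± 0.337 RPKM in Epi 8 leaf, and 43.5 ± 0.36 RPKM in WT root and 7.98 ± 1.18 RPKM in WT leaf. IAA14, whose mutant lacks lateral roots, was highest in root (4.01 ± 0.849 RPKM in Epi 8 and 3.41 ± 0.56 RPKM in WT), where IAA1 was lowest (5.49 ± 0.832 and 6.38 ± 2.1 RPKM).

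The line comparisons were made within each organ over its 9 libraries, and the call was an FDR under 0.05 over all genes tested with a log2FC of 0.5 or more in size. CPM in these comparisons are scaled over the 9 libraries of the organ. The edgeR quasi-likelihood test called 0 members in each of the 9 comparisons. Tested were 40 members in floral stem (not IAA15, IAA31, IAA33 and IAA34), 41 in root (not IAA5, IAA6 and IAA15) and 40 in leaf (not IAA15, IAA20, IAA31 and IAA33). The SE of the log2FC over the members ran from 0.0741 to 0.597 in leaf, from 0.113 to 1.23 in root and from 0.129 to 0.885 in floral stem, with a median of 0.135, 0.169 and 0.233 for Epi 8 against WT, so smaller changes could be detected in leaf. A missed threshold does not show that lines had the same level.

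In floral stem, IAA29, IAA11, IAA5 and IAA2 had lower and ARF8 higher values in Epi 8 than in WT plants, and no difference passed the adjusted threshold. An unadjusted p under 0.05 was found for 6 of 40 members, 5 lower and 1 higher in Epi 8 (all genes, 8.82%). The 2 lines had no overlapping plants for 9 members (22.5%, all genes 12.4%), and 5 members met both conditions (all genes, 6.63%). No member was called (all genes, 0.0255%), and DESeq2's Wald test called 1, IAA29 (all genes, 1.92%). Aux/IAA genes were lower in Epi 8 for 16 of 25 tested, with a median log2FC of -0.153, and ARFs higher for 11 of 15, with a median of 0.21, where the median over all genes was 0.00952 and 51.3% of genes lay above 0. None of these medians was tested.

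IAA29 had 1.14, 0.498 and 0.781 CPM in Epi 8 floral stems, against 1.87, 3.402 and 6.63 CPM in WT, and the log2FC was -2.28 (SE 0.514, FDR = 0.187). All Epi 8 plants lay below all WT plants, and the WT plants spread over a wide range. IAA11 (AT4G28640) had 9.38, 6.42 and 10.2 CPM in Epi 8 and 12.1, 19.6 and 19.9 CPM in WT, which gave a log2FC of -0.99 (SE 0.274, FDR = 0.282). IAA5 had 2.24, 8.06 and 10.5 CPM in Epi 8 and 23.7, 15.7 and 18.4 CPM in WT, which gave a log2FC of -1.48 (SE 0.516, FDR = 0.428). IAA5 and IAA11 are among the members that overlap a gene on the opposite strand. IAA2 (AT3G23030) had 78.2, 76.6 and 91.9 CPM in Epi 8 and 109.8, 102.6 and 123.7 CPM in WT, which gave a log2FC of -0.45 (SE 0.145, FDR = 0.385). ARF8 (AT5G37020), an activator cut by miR167 that acts in flower maturation, was the member with the higher level, at 84.02, 92.2 and 79.2 CPM in Epi 8 and 68.5, 56.5 and 36.7 CPM in WT, which gave a log2FC of 0.66 (SE 0.22, FDR = 0.396). These genes were named because the plants of the lines were separate at an unadjusted p under 0.05, and no difference passed the adjusted threshold. The 5 activator ARFs were above WT in log2FC, with a median of 0.22, and only ARF8 had an unadjusted p under 0.05.

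Genes of other processes are given for the same libraries, none of them called in Epi 8 against WT. Of the root markers, SCR had 21.2, 20.8 and 17.7 CPM in Epi 8, 12.9, 12.4 and 12.2 CPM in Epi 24 and 12.8, 13.4 and 13.03 CPM in WT floral stems, COBL9 and CASP1 had 0 CPM in all of them, and WER had at most 1.05 CPM. The secondary-wall cellulose synthase CESA8 had 447, 180 and 363 CPM in Epi 8, 958, 938 and 1003 CPM in Epi 24 and 315, 533 and 1450 CPM in WT floral stems, and CESA4 and CESA7 had the same order of means. Of the clock genes, LHY had 46.0, 42.9 and 53.0 CPM in Epi 8, 21.9, 16.6 and 13.8 CPM in Epi 24 and 21.1, 14.6 and 16.1 CPM in WT, (log2FC of Epi 8 against WT 1.45, FDR = 0.068), and TOC1 23.5, 25.3 and 33.6 CPM in Epi 8, 77.8, 96.6 and 74.3 CPM in Epi 24 and 60.2, 106.8 and 115.0 CPM in WT (log2FC -1.77, FDR = 0.068). The part of clock phase and of stem tissue in the values of IAA29 and the other members was not tested.

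**Figure D4:**
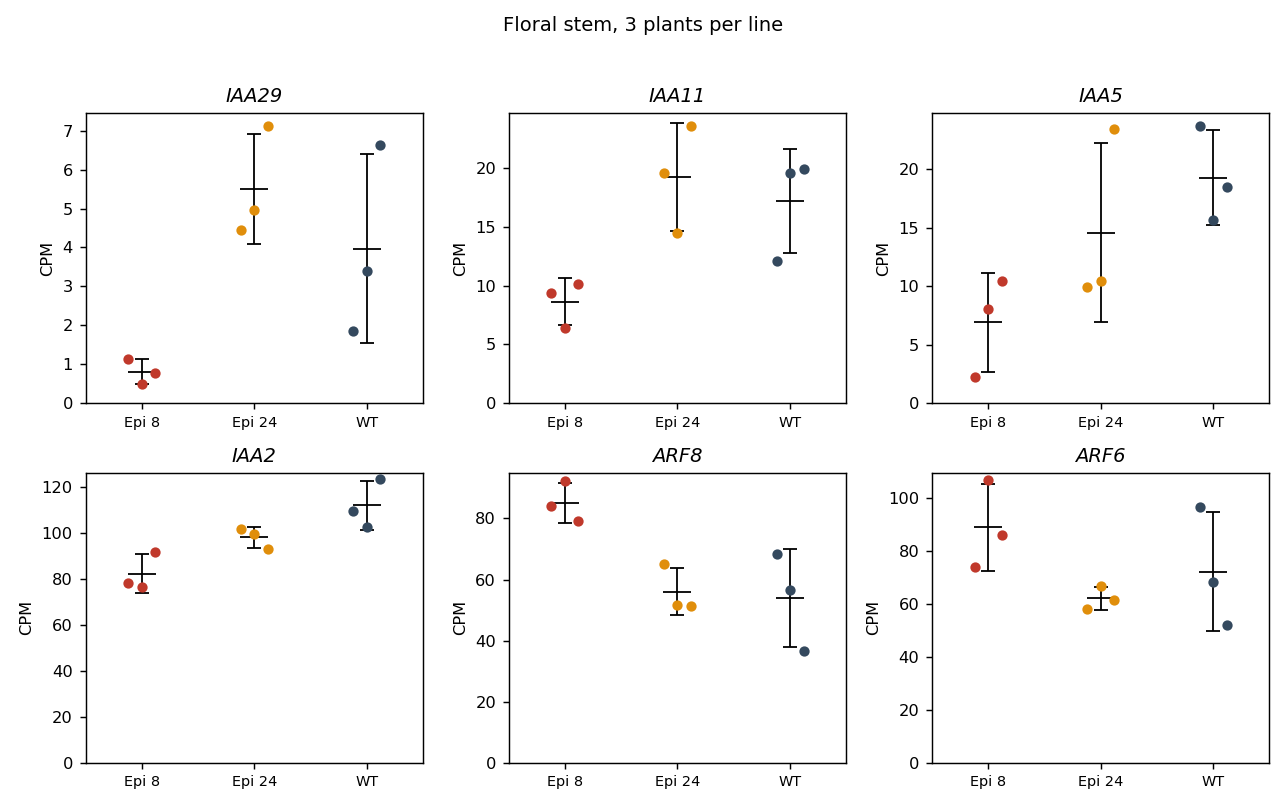
CPM scaled over the 9 floral stem libraries of IAA29, IAA11, IAA5, IAA2, ARF8 and ARF6 in each plant (points), with the mean (bar) and SD (whiskers) of 3 plants of Epi 8, Epi 24 and WT. The Epi 8 plants lie below the WT plants for IAA29, IAA11, IAA5 and IAA2 and above them for ARF8, and ARF6 overlaps between Epi 8 and WT.

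In Epi 24 against WT floral stem, at an unadjusted p under 0.05, 2 of 40 members passed, both lower (5.0%, all genes 6.11%), 5 did not overlap (12.5%, all genes 9.9%), 1 met both conditions (all genes, 4.07%), and none was called by edgeR (all genes, 0.0%) or DESeq2 (all genes, 0.112%). ARF16 (AT4G30080), a miR160 target that acts in the root cap, had 23.5, 21.7 and 24.3 CPM in Epi 24 and 31.0, 29.3 and 27.5 CPM in WT, which gave a log2FC of -0.34 (SE 0.129, FDR = 0.807). The median log2FC was 0.0085 over the members and -0.00409 over all genes, and 20 of 40 members lay above 0 (all genes, 49.4%).

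Between the families of the same cross, 6 of 40 members had an unadjusted p under 0.05 in Epi 8 against Epi 24 floral stem, 4 lower and 2 higher in Epi 8 (all genes, 16.8%), 12 did not overlap (30.0%, all genes 26.2%) and 5 met both conditions (all genes, 14.5%). Above 0 in log2FC lay 19 of 40 members (all genes, 51.5%). None was called (all genes, 0.0153%), and DESeq2 called IAA29 and IAA11 (all genes, 3.56%). IAA29 had 1.14, 0.498 and 0.781 CPM in Epi 8 and 4.44, 4.96 and 7.11 CPM in Epi 24, a log2FC of -2.76 (SE 0.519, FDR = 0.132), and it was called without WT floral stem plant 3 (FDR 0.0419), which enters the shared estimate of the spread. Without that plant, 251 of 19942 genes were called in this comparison, against 3 of 19594 with it. IAA11 had 9.38, 6.42 and 10.2 CPM in Epi 8 and 19.6, 14.5 and 23.6 CPM in Epi 24, a log2FC of -1.15 (SE 0.274, FDR = 0.175). IAA26, whose protein binds phytochrome and viral replicase, had 68.8, 57.5 and 57.6 CPM in Epi 8 and 71.7, 107.4 and 79.1 CPM in Epi 24 (log2FC -0.49, FDR = 0.259). Both miR167 targets lay higher in Epi 8, ARF8 with a log2FC of 0.6 (FDR = 0.254) and ARF6, at 74.0, 106.6 and 85.9 CPM in Epi 8 and 58.2, 66.7 and 61.3 CPM in Epi 24, with a log2FC of 0.52 (FDR = 0.297). The comparisons with WT and with Epi 24 share the Epi 8 plants, so they are not separate evidence.

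In root, at most 3 of 41 members passed in a comparison even without adjustment. In Epi 8 against WT, 0 of 41 members had an unadjusted p under 0.05 (all genes, 5.6%), 6 did not overlap (14.6%, all genes 13.3%) and the smallest FDR was 0.906, with none called by edgeR (all genes, 0.0%) or DESeq2 (all genes, 0.144%). No member met both conditions (all genes, 4.34%), and 23 of 41 lay above 0 in log2FC (all genes, 49.9%). In Epi 24 against WT, 3 members had an unadjusted p under 0.05 (7.32%, all genes 6.91%), 3 did not overlap (7.32%, all genes 10.9%) and 2 met both conditions (all genes, 4.81%). None was called by edgeR (all genes, 0.0%) or DESeq2 (all genes, 0.12%), and 27 of 41 lay above 0 in log2FC (all genes, 50.6%). ARF1, a repressor, had 54.6, 53.5 and 55.9 CPM in Epi 24 and 47.2, 44.8 and 42.9 CPM in WT, which gave a log2FC of 0.28 (SE 0.121, FDR = 0.718). IAA19, which acts in bending growth, had 6.31, 3.59 and 6.51 CPM in Epi 24 and 7.94, 12.1 and 6.77 CPM in WT, which gave a log2FC of -0.7 (SE 0.301, FDR = 0.718). In Epi 8 against Epi 24, 0 members had an unadjusted p under 0.05 (all genes, 11.4%), 4 did not overlap (9.76%, all genes 17.0%), none met both conditions (all genes, 8.59%) and none was called by edgeR (all genes, 0.0192%) or DESeq2 (all genes, 0.645%). The ARFs were lower in Epi 8 than in Epi 24 root for 13 of 15, with a median log2FC of -0.101 against -0.00221 over all genes (49.7% of genes above 0).

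In leaf, more genes were called between Epi 8 and WT than in the other organs, but no member. At an unadjusted p under 0.05, 4 of 40 members passed (10.0%, all genes 20.3%), 8 did not overlap (20.0%, all genes 25.7%), 3 met both conditions (all genes, 17.0%), and none was called by edgeR (all genes, 0.953%) or DESeq2 (all genes, 3.5%). By family, 21 of 25 Aux/IAA genes were lower in Epi 8 (median log2FC -0.166) and 11 of 15 ARFs higher (median 0.149), which was not tested, at a median of 0.00629 and 51.0% of genes above 0 over all genes. IAA8 (AT2G22670) had 104.8, 97.0 and 99.9 CPM in Epi 8 and 123.6, 125.4 and 116.0 CPM in WT, which gave a log2FC of -0.27 (SE 0.0811, FDR = 0.115). ARF7 (AT5G20730), the activator of phototropism and lateral root growth, had 82.2, 79.98 and 98.1 CPM in Epi 8 and 71.0, 58.2 and 70.8 CPM in WT, which gave a log2FC of 0.38 (SE 0.122, FDR = 0.138). IAA6 had 0.780, 1.00 and 0.881 CPM in Epi 8 and 1.05, 2.24 and 1.27 CPM in WT, which gave a log2FC of -0.77 (SE 0.335, FDR = 0.229). These are shifts of 1.21-, 1.3- and 1.71-fold, in members named because their plants did not overlap.

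In Epi 10 against WT leaf, 1 of 40 members had an unadjusted p under 0.05 (2.5%, all genes 7.03%), 2 did not overlap (5.0%, all genes 13.8%), 1 met both conditions (all genes, 5.33%) and none was called by edgeR (all genes, 0.0%) or DESeq2 (all genes, 0.105%). It was IAA27, with 40.6, 37.9 and 42.4 CPM in Epi 10 and 36.6, 33.6 and 35.2 CPM in WT, which gave a log2FC of 0.2 (SE 0.0826, FDR = 0.683). The Aux/IAA genes were lower for 18 of 25, with a median log2FC of -0.166 (all genes, -0.013 and 47.4% above 0), and this comparison shares its WT plants with that of Epi 8. In Epi 8 against Epi 10 leaf, 1 member had an unadjusted p under 0.05 (2.5%, all genes 7.08%), 3 did not overlap (7.5%, all genes 13.7%), 1 met both conditions (all genes, 5.86%) and none was called by edgeR (all genes, 0.0%) or DESeq2 (all genes, 0.294%). Above 0 in log2FC lay 23 of 40 members (all genes, 53.5%). The member below an unadjusted p of 0.05 was IAA8, with 104.8, 97.0 and 99.9 CPM in Epi 8 and 120.0, 106.6 and 115.6 CPM in Epi 10, a log2FC of -0.18 (SE 0.0811, FDR = 0.7).

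**Figure D5:**
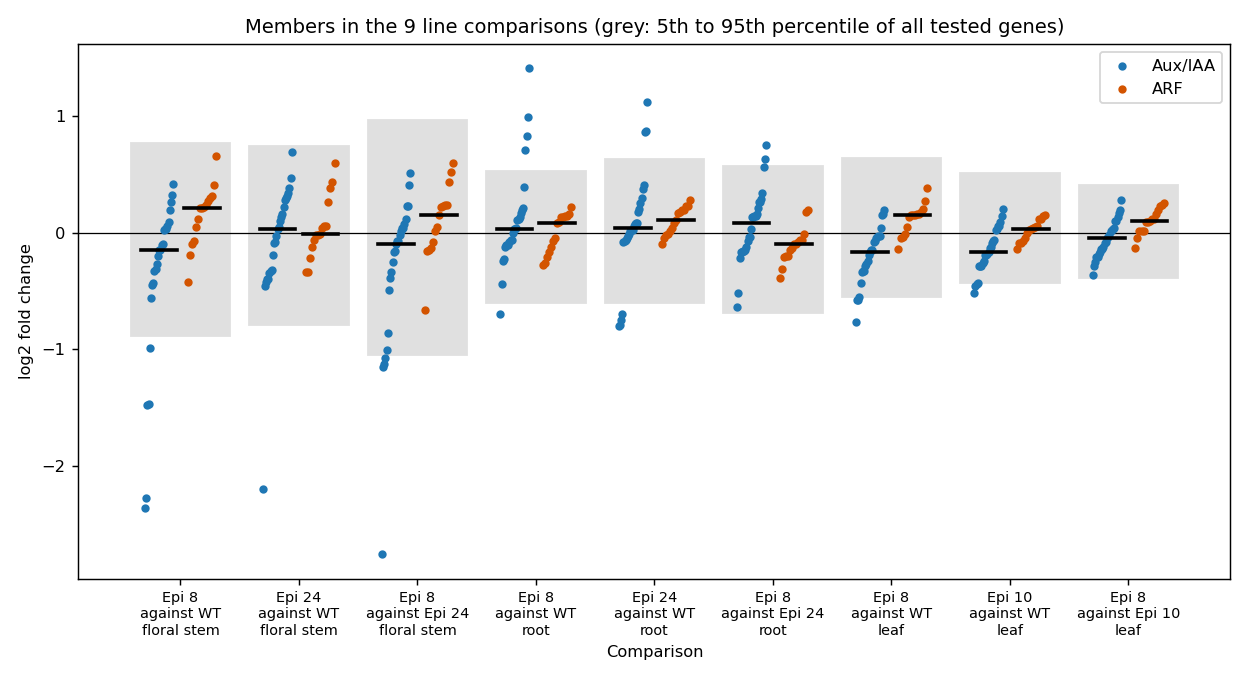
The log2FC of each tested Aux/IAA gene (blue) and ARF (orange) in the 9 line comparisons, with the median of each family (black bar) and the range from the 5th to the 95th percentile of all tested genes (grey box). IAA29 (-2.28) and IAA32 (-2.36) lie lowest in Epi 8 against WT floral stem, the ARFs stay inside the grey boxes, and no member was called.

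IAA32, a gene without the degron, shows how few reads lie behind the lowest points. It had 0.143, 0.149 and 0.676 CPM in Epi 8, 0.267, 0.147 and 0.661 CPM in Epi 24 and 2.59, 1.86 and 0.562 CPM in WT floral stems, and the plants overlapped in both comparisons with WT.

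The effect of Epi 8 was also compared between organs by an interaction term over all 27 libraries. The edgeR test called 0 members (of 43) for floral stem against root (6 at an unadjusted p under 0.05, all genes 10.5%, called among all genes 0.316%), 0 for leaf against root (3, all genes 8.05%, called 0.0%) and 0 for leaf against floral stem (5, all genes 12.4%, called 0.29%). It called 0 for the effect of Epi 24 in floral stem against root (3, all genes 8.76%, called 0.0%). The nearest was IAA11, whose Epi 8 effect was lower in floral stem than in root by 1.42 on the log2 scale, a difference of -1.42 (SE 0.371, FDR = 0.0982). DESeq2 called IAA11 in that comparison (all genes, 1.63%) and ARF16 for Epi 24 (difference -0.58 in edgeR, FDR = 0.213; all genes, 0.481%), and no member in the leaf comparisons (all genes, 0.165% and 1.76%). IAA11 had 7.91, 11.1 and 7.29 CPM in Epi 8 roots against 5.02, 9.58 and 5.42 CPM in WT roots, and Epi 8 was not the lower line there. The plants of the lines overlapped in root.

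A list of 40 other genes of the auxin pathway (receptors, co-repressors, GH3 conjugating enzymes, synthesis enzymes, SAUR19-type growth genes and LBD targets of ARF7 and ARF19) gave no call in any of the 9 comparisons, among 27 tested in floral stem, 28 in root and 29 in leaf. At an unadjusted p under 0.05, 2 were higher and 6 lower in Epi 8 floral stem than in WT (all genes, 8.82%), among them the receptor AFB5 (log2FC -0.85, FDR = 0.267), the conjugating enzyme GH3.2 (-2.09, FDR = 0.476) and the co-repressor TPL (0.44, FDR = 0.411). In floral stem, 0 were higher and 1 lower in Epi 24 than in WT (all genes, 6.11%), and 3 higher and 4 lower in Epi 8 than in Epi 24 (all genes, 16.8%). In root, 0 passed in Epi 8 against WT (all genes, 5.6%), 1 was higher and 2 lower in Epi 24 than in WT (all genes, 6.91%), and 1 higher and 1 lower in Epi 8 than in Epi 24 (all genes, 11.4%). In leaf, 1 was higher and 2 lower in Epi 8 than in WT (all genes, 20.3%), among them the receptor AFB1 (-0.58, FDR = 0.0752), 1 higher and 0 lower in Epi 10 than in WT (all genes, 7.03%), and 0 higher and 1 lower in Epi 8 than in Epi 10 (all genes, 7.08%). The genes named from this list were chosen after their values were seen.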

How the data were processed

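Reads of 27 libraries had been trimmed (TrimGalore), mapped to TAIR10 (STAR 2.7.3a, unique hits) and counted (QoRTs). The deposited values are raw whole counts per gene that the authors did not normalize. Reads outside genes (0.681 to 6.18%) and ambiguous reads (0.254 to 0.987%) stood on lines of their own and were left out. The strand setting is not given in the sources used here.

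Counts were fitted with edgeR 4.0.16 in R 4.3.3 (filterByExpr, TMM, quasi-likelihood test, Benjamini-Hochberg FDR), on the 9 libraries of an organ for lines and on all 27 for organs and interactions. The SE is the absolute log2FC over the square root of F. DESeq2 1.42.0, RLE scaling, other filters, fold limits, sets of libraries, a plant-number block and each plant left out were alternatives. The fit was tested on simulated counts. RPKM used exon lengths of TAIR10.1 (RefSeq), whose genome gave all sequences. No 2 plants of a group agreed within sampling noise.

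Per-plant values were given for called members in a line comparison or, where fewer than 5 were called, up to 5 non-overlapping members with the smallest unadjusted p under 0.05, and for up to 4 members per direction called in both lines between organs, and the 3 highest per WT organ. Members were chosen by gene identifier, but earlier results of these data were known when members and lists were chosen.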

Additional observations from a re-analysis of the deposited data

How the results depend on the processing

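The 20 to 24 members called between organs stayed within 1.5 times their count under every alternative run, with 18 to 32 calls. Leaving out a plant of the line gave 20 to 22 calls for WT root against floral stem, 22 to 24 for WT leaf against floral stem, 21 to 23 for WT leaf against root, 19 to 21 for Epi 8 root against floral stem, 23 to 24 for Epi 8 leaf against floral stem and 22 to 23 for Epi 8 leaf against root. In the line comparisons the count of 0 held under RLE scaling, no filter, the CPM filter, no fold limit and the 6 libraries of the groups compared. DESeq2 gave 1 call in Epi 8 against WT floral stem, 2 in Epi 8 against Epi 24 floral stem, 1 for the Epi 8 effect in floral stem minus root and 1 for the Epi 24 effect in floral stem minus root. Without adjustment of p, at 0.05 and the same fold limit, there were 5 members in Epi 8 against WT, 1 in Epi 24 against WT and 5 in Epi 8 against Epi 24 floral stem, 2 in Epi 24 against WT root, 1 in Epi 8 against WT leaf, and in the interactions 4 for Epi 8 in floral stem minus root, 1 in leaf minus root and 4 in leaf minus floral stem, and 3 for Epi 24. Leaving out a plant gave 0 to 1 calls in Epi 8 against Epi 24 floral stem (1 without WT plant 3), 0 to 1 for the Epi 8 effect in floral stem minus root (IAA11, without WT root plant 2 or WT floral stem plant 1) and 0 to 2 for the Epi 24 effect in floral stem minus root (IAA12 and ARF16, without WT floral stem plant 3). The cause of these changes was not tested. Plants carry the numbers 1 to 3 in each group, but same-numbered plants deviated together in no comparison by the rule of a correlation over 0.1 in every pair (nearest to it were 0.211, 0.065 and 0.181 in Epi 8 against Epi 24 floral stem and 0.213, 0.025 and 0.213 in Epi 8 against WT leaf, and Epi 8 against WT floral stem had -0.403, 0.031 and 0.064), so the numbers were not taken as pairs; with the number as a replicate block the counts were 0 in every line comparison and interaction, and 20, 22, 23 or 24 between organs as in the fit without it. Depth limits IAA15, IAA20 and IAA31 to IAA34, which had few reads.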
